A study of Mus musculus with 6 samples.

Results

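The genes described here are 43 genes of the skeletal muscle fiber: the myosins, actin and troponins of the sarcomere, the proteins that anchor and space its filaments, and the calcium and energy systems that serve it. They were named by symbol and were chosen by their levels in this same comparison, in which muscle transcripts had been seen to be high with peak, so their differences between the groups are a description and support nothing. All 43 had a row among the 23508 genes of the count table. Of these, 42 were among the 16755 genes tested, and Myl2 fell below the filter on low counts.

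RNA was sequenced from 6 tumors of 4T1, a mouse mammary carcinoma line that models triple-negative breast cancer. In 3 tumors, called before-peak replicates 1, 2 and 3, tissue was taken before neural activity had first peaked. In the other 3, called with-peak replicates 1, 2 and 3, it was taken on the day of that first peak. Values for the 3 tumors of a group are given in this order throughout. All 6 share the 4T1 line, and no drug, transgene or deletion is labelled in either group. The strain, age and sex of the mice, the site of the tumor, the day of collection and whether the tumors came from separate animals are not given in the labels, so the spread between replicates may be partly technical, and the day and the peak cannot be told apart.

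A striated muscle fiber is packed with sarcomeres, in which thick filaments of myosin pull on thin filaments of actin. An action potential opens the ryanodine receptor of the sarcoplasmic reticulum, calcium binds troponin on the thin filament, myosin is freed to bind actin, and a calcium pump then refills the store. Fast fibers and slow fibers build the same machine from different isoforms. Fast fibers use Myh4, Myh1 or Myh2 with fast troponins, whereas slow fibers use Myh7 with slow troponins. Mammary carcinoma cells are not a usual source of these proteins. In bulk tumor RNA, fewer muscle cells and less muscle RNA per cell cannot be told apart.

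The promoters of 5 members are shown because they open the groups described here: Myh4 and Myh7 are the leading fast and the slow heavy chain, Acta1 has the highest level per length with peak, Ckm leads the energy genes apart from Eno3, and Des leads the scaffold. Each is the 250 bases before the RefSeq start in GRCm38.p6, read 5′ to 3′ on the gene's strand. They lie at chr11:67237562-67237811 (+) for Myh4, chr8:123894776-123895025 (-) for Acta1, chr7:19410844-19411093 (+) for Ckm, chr1:75360042-75360291 (+) for Des and chr14:54994627-54994876 (-) for Myh7. Capitals mark matches on either strand to the E box CANNTG, the CArG box, the MEF2 motif and TATAAA.
Myh4: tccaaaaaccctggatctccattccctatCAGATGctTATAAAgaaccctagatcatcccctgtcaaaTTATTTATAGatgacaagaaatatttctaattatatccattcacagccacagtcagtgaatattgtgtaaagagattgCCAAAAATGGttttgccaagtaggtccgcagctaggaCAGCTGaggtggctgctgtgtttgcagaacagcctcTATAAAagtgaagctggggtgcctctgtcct
Acta1: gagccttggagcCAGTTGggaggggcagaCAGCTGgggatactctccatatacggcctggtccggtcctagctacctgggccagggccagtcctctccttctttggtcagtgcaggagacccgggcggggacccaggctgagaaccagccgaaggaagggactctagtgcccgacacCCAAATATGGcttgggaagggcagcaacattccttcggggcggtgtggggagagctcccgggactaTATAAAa
Ckm: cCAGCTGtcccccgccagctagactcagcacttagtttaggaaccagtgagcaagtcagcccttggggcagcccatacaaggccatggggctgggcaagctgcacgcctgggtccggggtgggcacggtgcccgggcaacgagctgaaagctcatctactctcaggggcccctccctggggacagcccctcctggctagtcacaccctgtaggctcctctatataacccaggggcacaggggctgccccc
Des: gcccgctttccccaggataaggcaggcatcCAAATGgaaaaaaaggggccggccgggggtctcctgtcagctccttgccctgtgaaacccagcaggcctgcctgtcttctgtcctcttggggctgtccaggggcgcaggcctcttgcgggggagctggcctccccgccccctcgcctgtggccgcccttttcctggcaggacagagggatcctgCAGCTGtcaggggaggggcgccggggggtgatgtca
Myh7: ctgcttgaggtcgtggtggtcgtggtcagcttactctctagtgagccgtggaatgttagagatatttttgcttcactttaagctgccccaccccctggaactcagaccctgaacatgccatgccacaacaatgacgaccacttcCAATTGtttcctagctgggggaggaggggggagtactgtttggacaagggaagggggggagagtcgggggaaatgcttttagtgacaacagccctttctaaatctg
The E box is bound by the myogenic factors of the MyoD family, the CArG box by serum response factor and the MEF2 motif by the MEF2 factors. In Myh4 the MEF2 match overlaps a TATAAA match on the opposite strand. Windows were found for 32 members, and none was used for Actn3, Ampd1, Jsrp1, Myom2, Myot, Myoz1, Neb, Tcap, Tnni2, Tnnt3 and Trdn. An E box lay in 27 of the 32 (84.4%), against 69.3% of 27025 genes with a window of the same length. Its version CAGCTG lay in 14 (43.8%), against 14.7%. A CArG box lay in 5 (15.6%), namely Acta1, Asb2, Ldb3, Myh4 and Myom1, against 1.62% of all genes. A MEF2 motif lay in 6 (18.8%), namely Myh1, Myh4, Pgam2, Pvalb, Ttn and Xirp2, against 3.42%. The letters CATTCC lay in 8 (25%), against 14.4%, and TATAAA in 6 (18.8%), against 14.3%. These are matches of letters, not measured binding sites.

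The 43 genes together were highest in with-peak replicates 2 and 3. Their summed level was 541, 242 and 172 CPM (counts scaled to library size, with TMM factors) before the peak and 511, 2398 and 2364 CPM with peak. The group means were 318 ± 196 and 1758 ± 1080 CPM (SD, n = 3). With-peak replicate 1 thus lay below before-peak replicate 1, and the groups overlapped. Of all counts, the members made up 0.0549%, 0.0243% and 0.0177% before the peak and 0.0501%, 0.235% and 0.230% with it. With-peak replicates 2 and 3 were the 2 highest libraries for 42 of 43 members, against 9.28% of genes tested. The exception was Asb2, in which before-peak replicate 3 was above with-peak replicate 2. The lowest library was before-peak replicate 3 for 30 members and before-peak replicate 2 for 11.

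**Figure D1:**
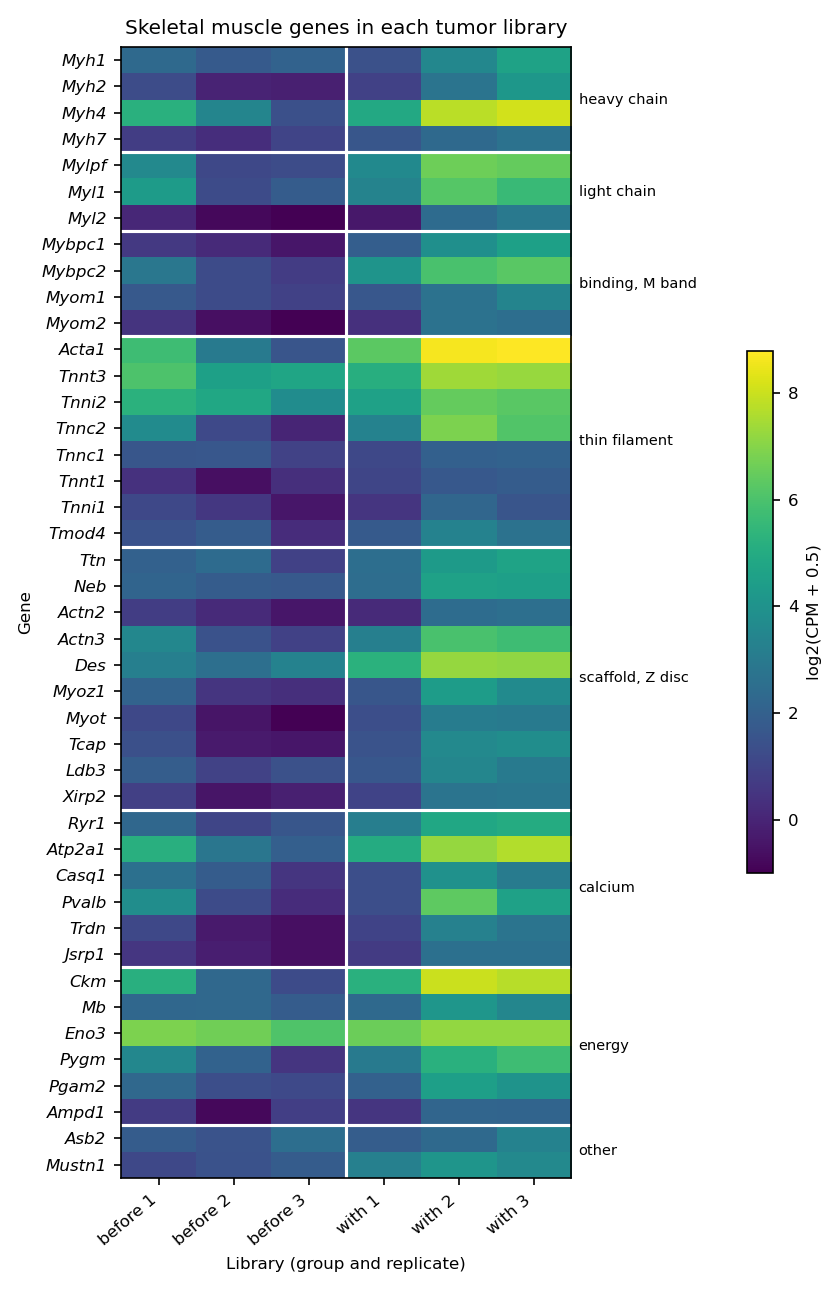
Level of each of the 43 genes (rows, by role) in each of the 6 libraries (columns), as log2(CPM + 0.5). With-peak replicates 2 and 3 are the 2 highest libraries in 42 of the 43 rows.

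No member passed the edgeR quasi-likelihood test with Benjamini-Hochberg adjustment over all genes, nor did any of the 16755 genes (0%). The smallest adjusted p of a member was 0.0961, for Mustn1, and the smallest of any gene was 0.0828. At an unadjusted p under 0.05, 26 of 42 members were higher with peak, against 6.12% of genes tested. DESeq2 called 15 of 42 members higher, against 1.44% of genes tested, and 0 lower, against 0.143%; limma-voom called 0. These 15 were Des, Jsrp1, Mustn1, Mybpc1, Mybpc2, Myh2, Myh7, Myom2, Neb, Pgam2, Ryr1, Tcap, Trdn, Ttn and Xirp2. The members' choice used this same contrast, so nothing is read from these counts.

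All 42 members tested had a positive log2 fold change, as had 47.7% of genes tested, and 0 members had a negative one, against 52.3%. The median was 2.52, with a range from 0.41 for Tnnc1 to 4.36 for Mybpc1, beside a median of -0.02 over all genes tested. A log2 fold change of at least 1 was reached by 39 of 42 members, against 3.4% of genes. The 3 members under it were Tnnc1, Eno3 and Asb2. In 17 of 43 members every with-peak tumor was above every before-peak tumor, against 8.13% of genes tested, and in 0 members the order was the reverse, against 7.38%. Without before-peak replicate 1 this held for 34 members (13.6% of genes), and without with-peak replicate 1 for 42 (14.2% of genes). Without with-peak replicate 1, edgeR called 4 of 43 members higher after adjustment over all genes, namely Des, Mybpc1, Neb and Ryr1, against 0.0522% of genes tested.

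**Figure D2:**
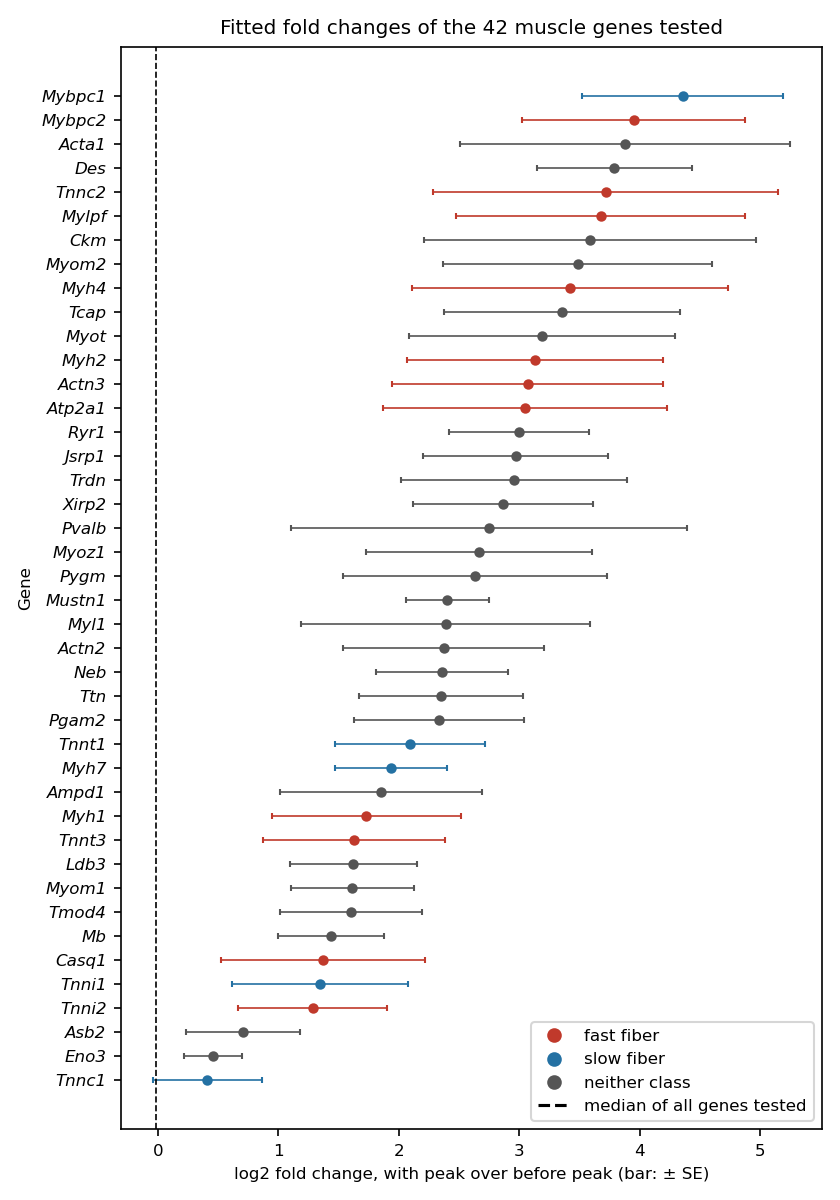
Log2 fold change of with-peak over before-peak tumors for the 42 members tested, with bars of 1 standard error, beside the median of all genes tested at -0.02. Points run from 0.41 for Tnnc1 to 4.36 for Mybpc1, and none passed the edgeR test after adjustment.

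Replicates of a group differed more in these genes than in most. The median SD of log2(CPM + 0.5) within the before-peak group was 0.784 over the 43 members and 0.212 over genes tested. Within the with-peak group it was 1.21 and 0.228. In the with-peak group 38 members had an SD above the 90th percentile of genes tested (0.603), and in the before-peak group 26 did (percentile at 0.614). Before-peak replicate 1 was above its group mean for 41 members, and with-peak replicate 1 was above its group mean for 0.

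Among the myosin heavy chains, the motors of the thick filament, the fast Myh4 gave most of the counts in 5 of 6 tumors. Myh4, the type IIb chain, was at 35.9, 10.5 and 2.08 CPM before the peak and at 29.7, 217 and 273 CPM with peak. With-peak replicates 2 and 3 stood far above the rest, while with-peak replicate 1 lay below before-peak replicate 1. Its log2 fold change was 3.42 (SE 1.31). Myh1, the type IIx chain, was at 4.57, 2.90 and 3.67 CPM before the peak and at 2.17, 11.1 and 24.0 CPM with peak, and with-peak replicate 1 was its lowest library (log2 fold change 1.73, SE 0.79). Myh2, the type IIa chain, was at 1.93, 0.470 and 0.417 CPM before the peak and at 1.33, 6.19 and 17.6 CPM with peak (log2 fold change 3.13, SE 1.06). Both had their highest level in with-peak replicate 3. The slow chain Myh7, which heart muscle can also make, was at 1.20, 0.705 and 1.5 CPM before the peak and at 2.60, 4.62 and 5.92 CPM with peak. It was the heavy chain whose groups did not overlap, with a log2 fold change of 1.93 (SE 0.47).

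The heavy chain genes lie close together, and their reads are partly alike. Myh2, Myh1 and Myh4 follow each other on chromosome 11, with 2534 bases between Myh2 and Myh1 and 13453 bases between Myh1 and Myh4, whereas Myh7 is on chromosome 14. Of the words of 50 bases in the longest transcript, 23.0% of those of Myh1, 22.3% of those of Myh2, 13.3% of those of Myh4 and 0.210% of those of Myh7 also occurred in another of these 4. Counts of the fast chains are uncertain to that extent, since how shared reads were counted is not given in the sources used here.

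The light chains, which stiffen and tune the myosin lever, were also highest in with-peak replicates 2 and 3. Mylpf, the fast regulatory light chain, was at 11.7, 1.64 and 1.92 CPM before the peak and at 11.9, 96.6 and 87.8 CPM with peak (log2 fold change 3.68, SE 1.20). The gap between the groups was thus 11.9 against 11.7 CPM at its narrowest. Myl1, the fast essential light chain, was at 20.1, 1.88 and 3.08 CPM before the peak and at 9.96, 72.4 and 49.3 CPM with peak (log2 fold change 2.39, SE 1.20). The slow regulatory light chain Myl2 had 7, 1 and 0 counts before the peak and 4, 62 and 74 counts with it. With-peak replicates 2 and 3 held nearly all of its counts, and no fold change is given for it.

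The proteins that bind and cross-link the thick filament had the highest median log2 fold change of the roles with more than 3 members, at 3.72 over 4 genes. Mybpc1, the slow myosin binding protein C, was at 1.04, 0.626 and 0.250 CPM before the peak and at 3.30, 13.9 and 23.0 CPM with peak (log2 fold change 4.36, SE 0.83). The fast form Mybpc2 was at 6.90, 1.88 and 1.17 CPM before the peak and at 16.3, 62.0 and 76.4 CPM with peak (log2 fold change 3.95, SE 0.92). In both, all with-peak tumors lay above all before-peak tumors. The M band proteins Myom1 and Myom2, which tie thick filaments together at the center of the sarcomere, differed by log2 fold changes of 1.61 (SE 0.51) and 3.49 (SE 1.12). Myom2 was at 0.883, 0.157 and 0 CPM before the peak and at 0.772, 5.95 and 5.34 CPM with peak.

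On the thin filament, actin gave the highest level of all members with peak. Acta1, the skeletal muscle actin, was at 52.2, 7.75 and 2.5 CPM before the peak and at 79.6, 404 and 437 CPM with peak (log2 fold change 3.88, SE 1.37). Every with-peak tumor was above every before-peak tumor, and the lowest and highest library were before-peak replicate 3 and with-peak replicate 3. Acta1 made up 9.66%, 3.21% and 1.46% of all member counts before the peak and 15.6%, 16.8% and 18.5% with it. Per length its mean level with peak was 200 CPM per kb of exon, the highest of the members, followed by Tnnc2 at 81.2 and Tnnt3 at 74.4 CPM per kb.

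The fast troponins, which hold myosin off actin until calcium arrives, were high in with-peak replicates 2 and 3. Tnnt3, the fast troponin T that anchors the complex, was at 64.9, 22.8 and 26.5 CPM before the peak and at 34.1, 165 and 154 CPM with peak (log2 fold change 1.63, SE 0.76). Tnni2, the fast inhibitory troponin I, was at 37.1, 27.6 and 13.1 CPM before the peak and at 23.9, 88.5 and 77.7 CPM with peak (log2 fold change 1.29, SE 0.62). Tnnc2, the fast calcium-binding troponin C, was at 12.5, 1.72 and 0.5 CPM before the peak and at 9.68, 116 and 69.7 CPM with peak (log2 fold change 3.72, SE 1.43). In all 3 genes with-peak replicate 1 lay below before-peak replicate 1, so the groups overlapped. Tnni2 and Tnnt3 are neighbors on chromosome 7, with 54425 bases between them.

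The slow troponins were low in every tumor. Tnnt1, slow troponin T, was at 0.803, 0.157 and 0.750 CPM before the peak and at 1.54, 2.74 and 3.10 CPM with peak (log2 fold change 2.09, SE 0.63). Tnni1, slow troponin I, was at 1.69, 1.02 and 0.250 CPM before the peak and at 0.912, 4.15 and 2.52 CPM with peak (log2 fold change 1.34, SE 0.73). Tnnc1, the troponin C of slow and heart muscle, was at 2.57, 2.66 and 1.42 CPM before the peak and at 1.68, 3.53 and 3.69 CPM with peak (log2 fold change 0.41, SE 0.45). The groups were apart in Tnnt1 and overlapped in Tnni1 and Tnnc1. Tmod4, which caps the pointed end of the thin filament, was at 2.25, 3.05 and 0.667 CPM before the peak and at 2.88, 9.48 and 5.92 CPM with peak (log2 fold change 1.60, SE 0.59).

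**Figure D3:**
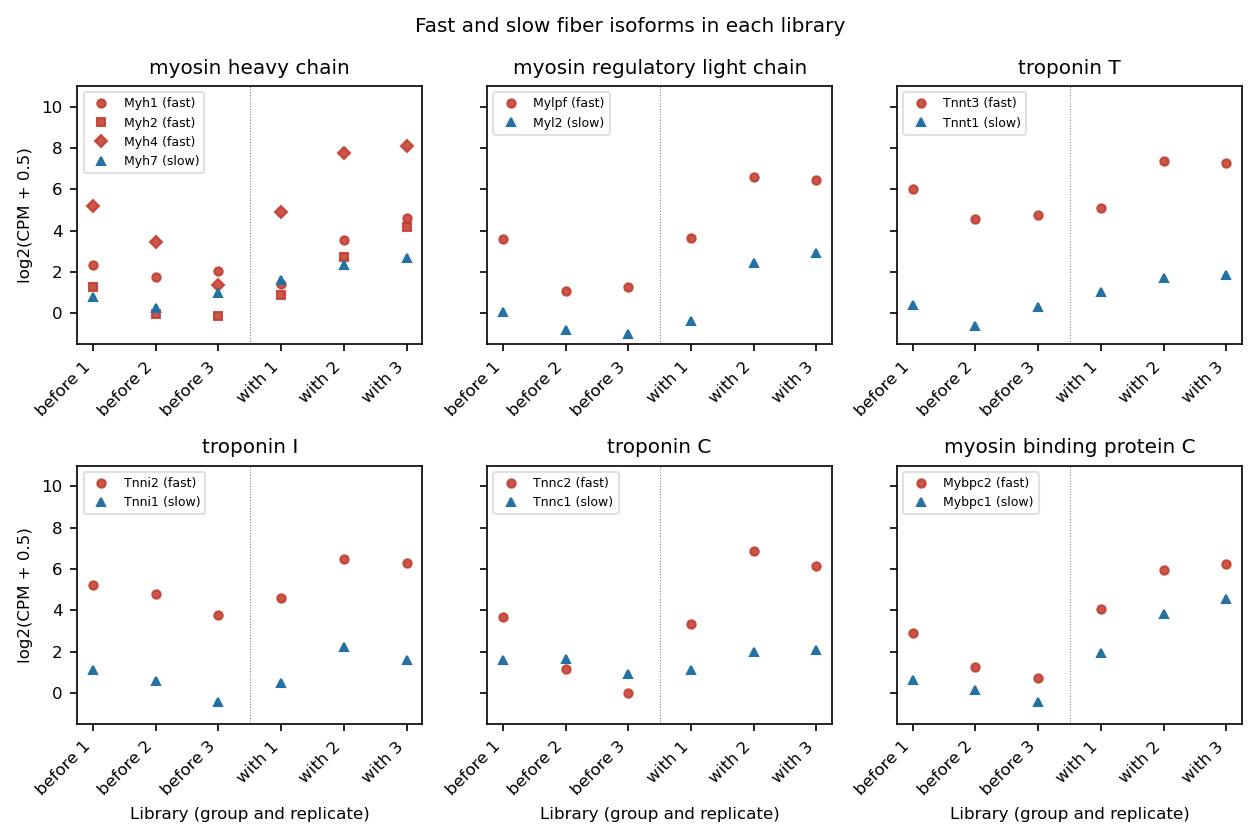
Level of the fast (red) and slow (blue triangles) isoforms of 6 sarcomere proteins in each library, as log2(CPM + 0.5). The fast forms of troponin T and troponin I are above the slow form in every library, while for troponin C the order turns in before-peak replicates 2 and 3.

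Set against each other within a tumor, where library scaling plays no part, the fast isoforms held most of the counts. Over the 6 pairs together the slow genes gave 4.29%, 7.02% and 7.79% of the counts before the peak and 7.39%, 4.25% and 5.50% with it. The group means of 6.36% ± 1.84 and 5.71% ± 1.58 (SD, n = 3) differed by less than either spread. The 3 tumors with the highest summed level, with-peak replicates 2 and 3 and before-peak replicate 1, had the 3 lowest shares, and before-peak replicate 3, with the lowest summed level, had the highest share. The order of the group means turned without before-peak replicate 3 (5.65% before the peak) and without with-peak replicate 2 (6.45% with peak). As counts per kb of exon the group means were 5.88% ± 1.91 and 3.76% ± 1.24 (SD, n = 3), further apart than either spread. By that measure the highest share was 7.46%, in before-peak replicate 2. Across the groups, the 11 fast genes had a median log2 fold change of 3.07 and the 5 slow genes tested one of 1.93. The ranges overlapped, from 1.29 to 3.95 for the fast genes and from 0.41 to 4.36 for the slow genes. Myl1 and Pvalb were not counted among the fast genes.

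The pairs were not alike in this. For the heavy chains the slow share was 2.76%, 4.84% and 19.6% before the peak and 7.25%, 1.93% and 1.85% with it. The 95% Wilson intervals of the 2 highest, 12.7% to 28.8% in before-peak replicate 3 and 5.31% to 9.84% in with-peak replicate 1, lay above those of with-peak replicates 2 and 3. Such intervals cover counting error only. For troponin C it was 17%, 60.7% and 73.9% before the peak and 14.8%, 2.96% and 5.03% with it, so that the slow form outnumbered the fast form in before-peak replicates 2 and 3. These rest on few counts, with 17 of Tnnc1 and 6 of Tnnc2 in before-peak replicate 3.

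In other pairs the share stayed within a narrower range. For troponin I it ran from 1.88% in before-peak replicate 3 to 4.48% in with-peak replicate 2. For troponin T it ran from 0.683% in before-peak replicate 2 to 4.33% in with-peak replicate 1. The regulatory light chain went from 0 of 23 counts in before-peak replicate 3, with a Wilson bound of up to 14.3%, to 7.56% in with-peak replicate 3. Myosin binding protein C had the highest slow share of the pairs in the tumors with the highest summed level, at 18.4% in with-peak replicate 2 and 23.1% in with-peak replicate 3. Mybpc1 is counted as slow by its name, and which fibers it came from was not tested. It gave 13 of 98, 8 of 67 and 3 of 50 slow counts of all pairs before the peak. With peak it gave 47 of 147, 178 of 432 and 237 of 468.

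**Figure D4:**
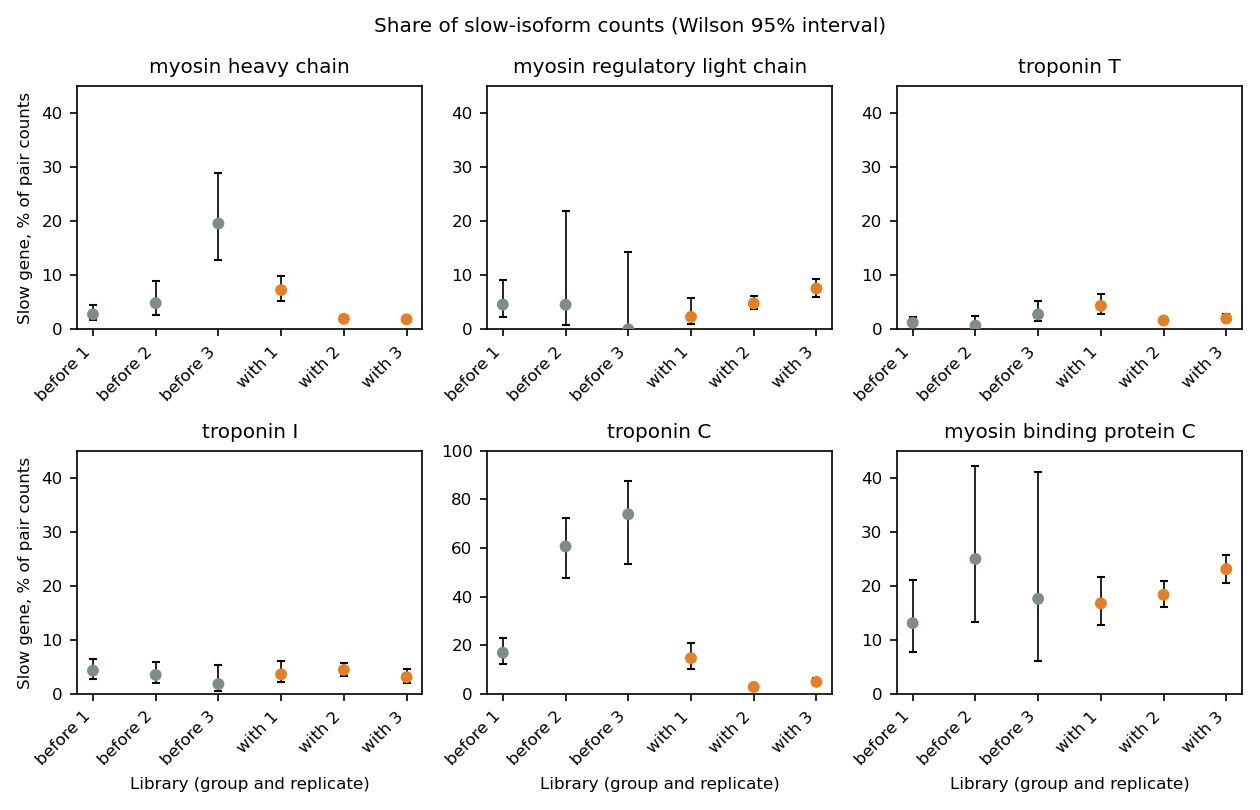
Slow isoform share, in percent of the counts of slow plus fast genes, for 6 pairs in each library, with 95% Wilson intervals that cover counting error only; the vertical axis runs to 100% for troponin C and to 45% for the other pairs. Troponin C reaches 73.9% in before-peak replicate 3, and troponin T stays at or under 4.33%.

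Within the heavy chains alone, Myh4 gave 82.3%, 72.0% and 27.2% of the counts of the 4 genes before the peak and 82.9%, 90.8% and 85.2% with it. Before-peak replicate 3, with only 92 such counts, was the exception, and there Myh1 gave 47.8%. Myh2 gave between 2.59% and 5.47% in every tumor.

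The genes of calcium release and uptake had a median log2 fold change of 2.96 over 6 members. Ryr1, the calcium release channel, was at 4.33, 1.57 and 2.58 CPM before the peak and at 8.63, 27.6 and 31.9 CPM with peak (log2 fold change 3.00, SE 0.58). Its groups did not overlap. Atp2a1, the calcium pump of fast fibers, was at 35.7, 6.58 and 3.42 CPM before the peak and at 32.0, 149 and 198 CPM with peak (log2 fold change 3.05, SE 1.18). Casq1, which stores calcium inside the reticulum, was at 5.62, 3.05 and 0.917 CPM before the peak and at 2.03, 15 and 7.86 CPM with peak (log2 fold change 1.37, SE 0.85). Both had with-peak replicate 1 below before-peak replicate 1.

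Pvalb, the calcium buffer of fast fibers, varied most between with-peak replicates 2 and 3. It was at 13.2, 1.88 and 0.667 CPM before the peak and at 2.03, 80.7 and 23.4 CPM with peak (log2 fold change 2.75, SE 1.64). Trdn and Jsrp1, which help hold the release complex at the junction of reticulum and surface membrane, were low. Trdn was at 1.69, 0.313 and 0.167 CPM before the peak and at 1.47, 9.32 and 6.31 CPM with peak (log2 fold change 2.96, SE 0.94). Jsrp1 was at 0.963, 0.391 and 0.167 CPM before the peak and at 1.12, 5.56 and 5.53 CPM with peak, with groups that did not overlap (log2 fold change 2.97, SE 0.77).

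The 10 genes of the scaffold and Z disc had a median log2 fold change of 2.77, from 1.62 for Ldb3 to 3.79 for Des. Des, the intermediate filament desmin that links neighboring myofibrils, was at 8.91, 5.4 and 9.50 CPM before the peak and at 37.0, 149.9 and 142.9 CPM with peak (log2 fold change 3.79, SE 0.64). With-peak replicate 1 was here well above every before-peak tumor, unlike in most members. Ttn, the spring that spans the sarcomere from Z disc to M band, was at 3.61, 4.78 and 1.33 CPM before the peak and at 5.26, 19.7 and 24.9 CPM with peak (log2 fold change 2.35, SE 0.68). Neb, the ruler of the thin filament, was at 3.93, 3.13 and 2.83 CPM before the peak and at 5.19, 23.3 and 22.5 CPM with peak (log2 fold change 2.36, SE 0.55). In both the groups did not overlap, though with-peak replicate 1 lay close to the before-peak tumors.

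Of the actinins that cross-link actin at the Z disc, Actn3 is confined to fast fibers. Actn3 was at 11.1, 2.27 and 1.33 CPM before the peak and at 8.70, 62.3 and 52.9 CPM with peak (log2 fold change 3.07, SE 1.12). Actn2, made in all fibers and the heart, was at 1.20, 0.626 and 0.250 CPM before the peak and at 0.631, 4.94 and 5.43 CPM with peak (log2 fold change 2.37, SE 0.84). Both had overlapping groups. Myot and Tcap, Z disc proteins that bind actinin and titin, had log2 fold changes of 3.19 (SE 1.10) and 3.35 (SE 0.98), and Xirp2, an actin-binding repeat protein, had 2.86 (SE 0.75), all 3 with groups apart. Myoz1, which links actinin to calcineurin, and Ldb3, a PDZ and LIM protein of the Z disc, had 2.67 (SE 0.94) and 1.62 (SE 0.53), with groups that overlapped.

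Among the genes of energy supply, Ckm differed widely between tumors and Eno3 little. Ckm, the muscle creatine kinase that buffers ATP, was at 35.4, 4.38 and 1.83 CPM before the peak and at 36.6, 253 and 211 CPM with peak (log2 fold change 3.58, SE 1.38). Eno3, the muscle enolase of glycolysis, was at 116, 99.7 and 66.7 CPM before the peak and at 95, 147 and 146 CPM with peak (log2 fold change 0.46, SE 0.24). Eno3 thus made up 38.8% of all member counts in before-peak replicate 3 and 6.12% in with-peak replicate 2. Mb, the oxygen store myoglobin, was at 4.33, 4.38 and 3.08 CPM before the peak and at 4.63, 16.8 and 10.6 CPM with peak (log2 fold change 1.44, SE 0.44). The groups were apart in Ckm and Mb, in both by a narrow margin of with-peak replicate 1 over the highest before-peak tumor.

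Pygm, the muscle glycogen phosphorylase, was at 10.9, 3.68 and 0.917 CPM before the peak and at 7.36, 36.5 and 53.0 CPM with peak (log2 fold change 2.63, SE 1.10). Pgam2, the muscle phosphoglycerate mutase, came to a log2 fold change of 2.33 (SE 0.71), and Ampd1, the muscle AMP deaminase, to 1.86 (SE 0.84). In these 3 the groups overlapped. Of the other 2 members, Asb2, a ubiquitin ligase subunit that targets filamins, was at 3.05, 2.35 and 5.25 CPM before the peak and at 3.23, 4.62 and 9.60 CPM with peak (log2 fold change 0.70, SE 0.47). Mustn1, a small nuclear protein of the musculoskeletal system, was at 1.69, 2.27 and 3.08 CPM before the peak and at 8.98, 16.7 and 11.6 CPM with peak (log2 fold change 2.40, SE 0.34). It had the smallest standard error relative to its change, which by construction restates the largest F value of the edgeR test among the members. Its lowest with-peak tumor was well above its highest before-peak tumor.

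Libraries were made without strand, so 14 members that overlap a counted gene on the opposite strand carry some uncertainty. Ckm overlaps the antisense gene A930016O22Rik, which had 218, 27 and 13 counts before the peak and 360, 2116 and 1279 counts with it. Atp2a1 overlaps Rabep2, with 402, 273 and 285 counts before the peak and 391, 829 and 733 with it, and Tnnc2 overlaps Ube2c, with 1285, 1147 and 919 counts and 1120, 2312 and 1688 counts. The high values of these partners fell in with-peak replicates 2 and 3, as did those of the members. The other 11 are Casq1, Mb, Mybpc1, Mybpc2, Myh1, Myh2, Myh7, Myl2, Myom1, Ryr1 and Xirp2.

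Other muscle genes were examined in lists drawn up with earlier results of these data known. In every list below edgeR called 0 genes after adjustment over all genes. Of 30 further sarcomere genes 20 were tested, 18 of them with a positive log2 fold change, at a median of 1.41. At an unadjusted p under 0.05, 11 were higher and 0 lower, and DESeq2 called 8. Tpm1, Tpm3 and Cfl2, the most abundant of these and also made by non-muscle cells, had no unadjusted p under 0.05, with Tpm1 at 399.8, 338 and 285 CPM before the peak and at 306, 411 and 412 CPM with peak. The heart and embryonic actin Actc1 had 26, 2 and 6 counts before the peak and 23, 4 and 12 with it.

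Of 19 genes of excitation and calcium handling with a row, 14 were tested and 11 had a positive log2 fold change, at a median of 0.65; 6 were higher and 0 lower at an unadjusted p under 0.05, and DESeq2 called 3. Cacna1s, the voltage sensor that opens Ryr1, had 18, 8 and 17 counts before the peak and 11, 104 and 160 with it. Sln, the small inhibitor of the calcium pump, had 0 counts in all before-peak tumors and 14, 90 and 27 counts with peak. Both were thus highest in with-peak replicates 2 and 3, as the members were. Atp2a2, the pump of slow and heart muscle that most other cells also make, was at 287, 299 and 298 CPM before the peak and at 245, 257 and 282 CPM with peak. Casq2, the store of slow and heart muscle, had at most 11 counts in any tumor.

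Of 17 tested genes of muscle energy supply outside the members, 15 had a positive log2 fold change, at a median of 0.62; 4 were higher and 0 lower at an unadjusted p under 0.05, and DESeq2 called 3. For the dystrophin complex 8 of 13 tested were positive, at a median of 0.29, with 3 higher and 1 lower at an unadjusted p under 0.05, and DESeq2 called 0. Of the nerve-muscle junction list 4 of 8 genes were tested and 0 were positive, at a median of -0.36, with 0 higher and 1 lower at an unadjusted p under 0.05, and DESeq2 called 0. Its subunit Chrna1 of the muscle acetylcholine receptor had 4, 3 and 4 counts before the peak and 11, 20 and 4 with it. Musk, the receptor kinase that builds the junction, had 0 counts in all before-peak tumors and 6, 6 and 3 with peak, and it was named after its values were seen.

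The genes of making and renewing muscle were near the limit of detection. Of 17 myogenic regulators 15 had a row and 13 were tested. Of these 6 had a positive log2 fold change, at a median of -0.05, with 2 higher and 1 lower at an unadjusted p under 0.05, and DESeq2 called 1. Myf6, the regulator of the MyoD family found in mature fibers, had 1, 0 and 0 counts before the peak and 18, 25 and 43 with it. Myog, which drives myoblast fusion and differentiation, had 1, 1 and 1 counts before the peak and 0, 7 and 6 with it. Myh3, the embryonic heavy chain, had at most 4 counts in any tumor. Myf6 was thus above its before-peak counts in all 3 with-peak tumors, while Myog and Myh3 had few counts everywhere. Of the 11 genes of the satellite cell list only 4 had a row and 3 were tested. Of these 2 were positive, and 0 had an unadjusted p under 0.05 or were called by DESeq2. Myod1, Myf5, Pax7 and Myh8 were not analysed here.

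Markers of other cells were summed in the same libraries, since a tumor block can hold several tissues. Of the cardiac list, which shares thick and thin filament proteins with the members, 9 genes had a row, and 4 of 9 were at 0 in some library. Most of its genes had few counts: Nppa had at most 3 in any tumor, Tnni3 at most 13, Mybpc3 at most 16, Ryr2 at most 18 and Myl7 at most 23. Nppb and Myl4 reached more, with up to 50 counts in before-peak replicate 2 and up to 61 in before-peak replicate 3. Myh6 had 0, 3 and 5 counts before the peak and 17, 14 and 8 with it. Its groups did not overlap, but it fell below the filter on low counts and was not tested. Tnnt2 gave nearly all of the list's level, at 325, 407 and 220 CPM before the peak and at 212, 221 and 222 CPM with peak. The 12 smooth muscle and pericyte markers summed to 622, 797 and 759 CPM before the peak and to 699.6, 937 and 542 CPM with peak, so the groups overlapped, and 5 of 12 had a positive log2 fold change. Of the 4 cardiac genes tested 0 were positive.

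Markers of red cells were high in the same tumors as the muscle genes. The 11 erythroid and platelet markers with a row summed to 281, 171 and 324 CPM before the peak and to 345, 1573 and 2245 CPM with peak. All 9 tested were positive, at a median log2 fold change of 2.66, with 6 at an unadjusted p under 0.05 and 3 called by DESeq2. The 10 macrophage markers summed to 3434, 2086 and 2699 CPM before the peak and to 3839, 5565 and 4273 CPM with peak, with all 10 positive at a median of 0.70, 9 at an unadjusted p under 0.05 and 5 called by DESeq2. The share of counts from mitochondrial rRNA was 0.0332%, 0.0313% and 0.0456% before the peak and 0.0614%, 0.0655% and 0.0587% with it. The part of red cells, macrophages and mitochondrial rRNA in the muscle result was not tested. The 12 adipocyte markers summed to 1875, 1081 and 2700 CPM before the peak and to 982, 3748 and 2060 CPM with peak, with groups that overlapped. Of the fibroblast, endothelial, carcinoma epithelial, mammary gland, tendon, keratinocyte and Schwann cell lists, DESeq2 called 2 keratinocyte genes and 0 others. A positive log2 fold change was found in 9 of 10 fibroblast genes tested (median 0.55), 8 of 8 endothelial (0.32), 3 of 6 Schwann cell (-0.07) and 2 of 5 tendon genes (-0.12). It was found in 2 of 9 carcinoma epithelial genes tested (median -0.20), 0 of 5 mammary gland (-0.26) and 2 of 5 keratinocyte genes (-0.35). At an unadjusted p under 0.05, 1 fibroblast gene was higher, 1 carcinoma epithelial gene was lower, and 1 keratinocyte gene was higher and 3 lower.

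**Figure D5:**
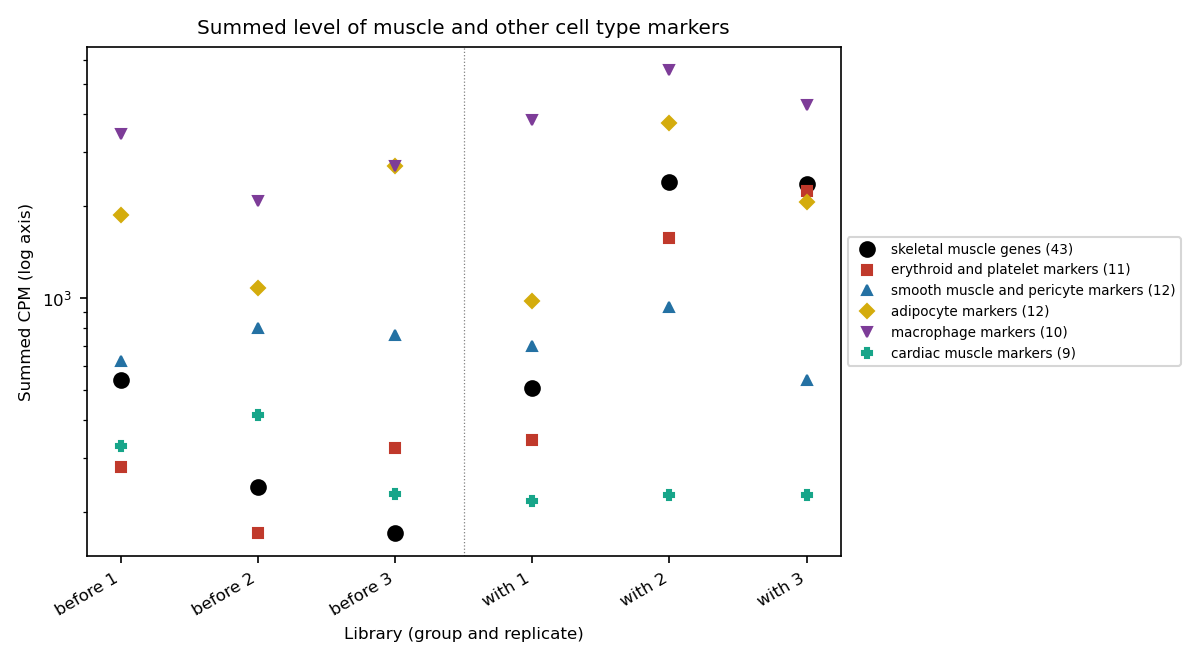
Summed level in CPM (log axis) of the 43 skeletal muscle genes (black) and of 5 marker lists in each library. The muscle genes and the erythroid markers are both highest in with-peak replicates 2 and 3, while the summed smooth muscle and cardiac markers show no such split. The cardiac sum is nearly all Tnnt2.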

How the data were processed

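RNA from snap-frozen tumors was extracted with Trizol, selected with oligo(dT) and sequenced as unstranded paired-end libraries, per the labels' protocols. FastQC, STAR and the mm10 build are named without versions, per the submitters' processing notes. The values deposited by the authors are raw counts per gene, with no normalization. For the counter, the annotation and any filter, the sources used here give no name.

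Total counts were 12262915, 12677637 and 11640276 before the peak and 14549357, 13010443 and 10591067 with it, so a gene near 1 CPM rests on few counts. Of the 23508 identifiers, 23479 matched GENCODE M21 of GRCm38, which gave symbols and coordinates. Libraries of a group differed beyond sampling noise (chi-square over degrees of freedom between 17.1 and 28.9), so none was counted as a duplicate.

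Counts were tested with the edgeR 4.0.16 quasi-likelihood test (R 4.3.3, TMM scaling, filterByExpr with a minimum count of 10 and total of 15, Benjamini-Hochberg adjustment, threshold 0.05, two-sided) on all 16755 genes kept, with no covariate. An exact permutation test of 3 against 3 tumors cannot go below 0.1, so none was used. The code was tested on simulated data. Alternatives were limma 3.58.1 voom, DESeq2 1.42.0, other scalings and filters, a replicate block and leaving out each library. The members and all lists were chosen with earlier results of these data known. All members were eligible to be named; of each other list the 3 most abundant tested genes and a short set fixed by name were eligible, and others were named after their values were seen. CPM per kb uses the union of GENCODE exons. Promoters are from RefSeq, GRCm38.p6.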

Additional observations from a re-analysis of the deposited data

How the results depend on the processing

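With no filter on low counts, edgeR called 29 genes in all and 1 member, Mustn1. DESeq2, with the filter of the main setting, called 266 genes (242 higher, 24 lower) and 15 members. With the replicate number as a block edgeR called 1 gene and 0 members, and the median member log2 fold change was 2.70. Same-numbered tumors did not deviate together (correlations of -0.06, -0.10 and 0.03), so the numbers were not taken as pairs. Leaving out 1 library gave 0 to 17 calls over all genes, namely 17 when before-peak replicate 2 was left out, 13 for before-peak replicate 3 and 9 for with-peak replicate 1. It gave 0 to 4 member calls, with Des, Mybpc1, Neb and Ryr1 called without with-peak replicate 1. The median member log2 fold change ran from 2.11 to 3.78, the latter without before-peak replicate 1. The members whose groups did not overlap ran from 17 to 42 of 43. The share of all genes tested ran from 11.6% to 14.8% in the same runs, against 8.13% with all 6 libraries. The summed level before the peak was 207 CPM without before-peak replicate 1, against 318. As counts per kb the slow share with peak was 3.76%, against 5.71%, and before the peak it was 5.88%, against 6.36%. That measure divides both the fast and the slow genes by their exon length. Other scalings gave 0 calls and a median between 2.46 and 2.52. Scaling by library size alone left 15 members whose groups did not overlap, against 17 in the main setting, and the share over all genes was not computed for it. Members near 1 CPM, among them Tnnt1, Myom2 and Jsrp1, carry large counting error. The mean slow share, lower with peak in the main setting (5.71% against 6.36%), was the higher with peak without before-peak replicate 3 (5.65% before the peak) or without with-peak replicate 2 (6.45% with peak). The median member log2 fold change stayed positive under every alternative for which it was computed, which left out DESeq2 and limma-voom. The members' choice used this same contrast, so this is a description only.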

Other observations

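Libraries were also compared in pairs chosen after their values were seen, as ratios of CPM with exact intervals that cover counting error only and no replicates. With-peak replicate 1 against before-peak replicate 1 gave a median ratio of 0.874 over the 43 muscle genes, with 10 intervals below 1, 7 above 1 and 26 spanning it. The low end held Pvalb at 0.155 and Casq1 at 0.362, both of calcium handling, and the high end held Mustn1 at 5.33, Des at 4.16, Mybpc1 at 3.16 and Mybpc2 at 2.37. With-peak replicate 3 against with-peak replicate 2 gave a median of 0.976, with 17 intervals below 1 and 12 above. Here Pvalb was again lowest, at 0.290, and the fast heavy chains Myh2 and Myh1 were highest, at 2.84 and 2.15, while the slow chain Myh7 was at 1.28.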
